A study of Homo sapiens with 9 samples.

Results

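The genes described here are 39 epithelial keratins, claudins, tight junction and desmosome proteins and their regulators, measured by RNA sequencing in A549, an established human lung adenocarcinoma cell line. They were picked by symbol, with no measured value in the rule but with earlier results of these data known. All 39 were found among the 51796 genes of the count table. All cells carried a stable short hairpin RNA under puromycin selection and were grown in RPMI medium with fetal serum. The GFP control carried a hairpin against GFP, the PRMT5 knockdown a hairpin against the arginine methyltransferase PRMT5, and the MEP50 knockdown a hairpin against WDR77, which encodes the PRMT5 cofactor MEP50. Each group held 3 libraries labelled as biological replicates. The labels do not say whether these were separate cultures, so the p-values measure the spread between these libraries. The number of hairpins per target, and whether the lines were clones, are not given in the sources used here, so a hairpin and its target cannot be told apart. The series asks what loss of PRMT5 or of MEP50 does to the transcriptome of these cells, and the labels name no added ligand.

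Keratins are intermediate filament proteins that assemble from pairs of a type I and a type II chain, and simple epithelia are known for the pair KRT8 and KRT18. Tight junctions seal the space between epithelial cells: claudins and occludin span the membrane, and ZO proteins and cingulin tie them to actin. Desmosomes bind keratin filaments to the membrane through cadherins (desmogleins and desmocollins), plakoglobin, plakophilins and desmoplakin. In lung adenocarcinoma these genes are used as markers of the epithelial state.

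Reads on genes numbered 20806181 to 31586128 per library. The 39 genes took 0.792% to 0.823% of them in the control, 0.598% to 0.616% with PRMT5 knockdown and 0.554% to 0.582% with MEP50 knockdown. PRMT5 itself stood at 209 ± 3.17 CPM in the control, 68.9 ± 1.33 under its own hairpin and 204 ± 6.35 under the hairpin against MEP50 (SD, n = 3). WDR77 stood at 39.4 ± 0.225, 44.1 ± 2.52 and 12.5 ± 1.58 CPM in the same order, so each hairpin's own target was low in its group. Levels are CPM, read counts scaled to a common library size, after TMM scaling, a correction for library composition. The labelled cell type was checked on markers: KRT8 and KRT18 were abundant, but EPCAM had 3 to 7 reads per library and KRT19 had 2 reads in all 9 libraries together. Of the alveolar type II markers, SFTPB and SFTPA1 had 0 reads, SFTPC 0 to 3 per library and NKX2-1 0 to 6, while ABCA3 was present at 36.6 ± 0.788 CPM in the control.

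Of the 39 genes, 37 had at least 1 read, 29 passed the filter on low counts and were tested, and 25 had a mean of at least 1 CPM. In the PRMT5 knockdown 24 of the 29 tested genes differed from the control at an adjusted p under 0.05 (edgeR quasi-likelihood test), 10 higher and 14 lower. Of all 14582 genes tested, 51% differed in that comparison, 26.1% higher and 24.9% lower. In the MEP50 knockdown 22 of the 29 differed, 13 higher and 9 lower, where 51.7% of all tested genes did, 26.5% higher and 25.2% lower. Among genes whose mean reached 1 CPM, the counts were 21 of 25 beside 55.4% of all such genes, and 20 of 25 beside 56.2%. The median absolute log2 fold change of the 29 genes was 0.63 with PRMT5 knockdown and 0.51 with MEP50 knockdown, against 0.21 and 0.23 over all tested genes. The signed medians were -0.19 and 0.17, against 0.003 and -0.002. At 2-fold or more, 4 of the 29 were higher and 4 lower in the PRMT5 knockdown (7.25% of all tested genes in both directions), and 3 were higher and 2 lower in the MEP50 knockdown (7.51%). The libraries of control and knockdown did not overlap for 24 of the 29 genes in each comparison, beside 57.2% and 56.9% of all tested genes. Since 2 genes with few reads, KRT15 and ST14, passed the filter through the groups where they are high, these shares describe the tested genes and not all 39. The list was also chosen with earlier results of these data known, so setting it beside all genes is a description.

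The genes did not move as a block. Both knockdowns were compared with the same 3 control libraries, so shared directions between them are a description. Higher in both were KRT80, KRT15, CLDN2, OCLN, TJP1, PKP2, PKP3 and EVPL, and lower in both were KRT8, KRT18, MARVELD2, JUP, DSG2, DSC2 and ELF3. The 4 genes KRT81, CLDN1, CLDN12 and F11R were called in opposite directions. The PRMT5 knockdown alone passed the threshold for TJP3, CGN, PPL, ST14 and CRB3, and the MEP50 knockdown alone for KRT7, CLDN7 and LLGL2. DSP and SPINT2 passed it in neither. The share of all tested genes with each of these joint patterns was not counted, so the groupings describe the 29 genes only. Compared directly, MEP50 knockdown libraries were higher than PRMT5 knockdown libraries for 12 of the 29 genes and lower for 7, where 39.7% of all tested genes differed (20.5% higher and 19.2% lower). Of the 25 more abundant genes 16 differed, beside 44% of all such genes, and at 2-fold or more 4 of the 29 were higher and 1 lower (3.19%). Their libraries did not overlap for 18 of the 29 (47.2%).

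**Figure D1:**
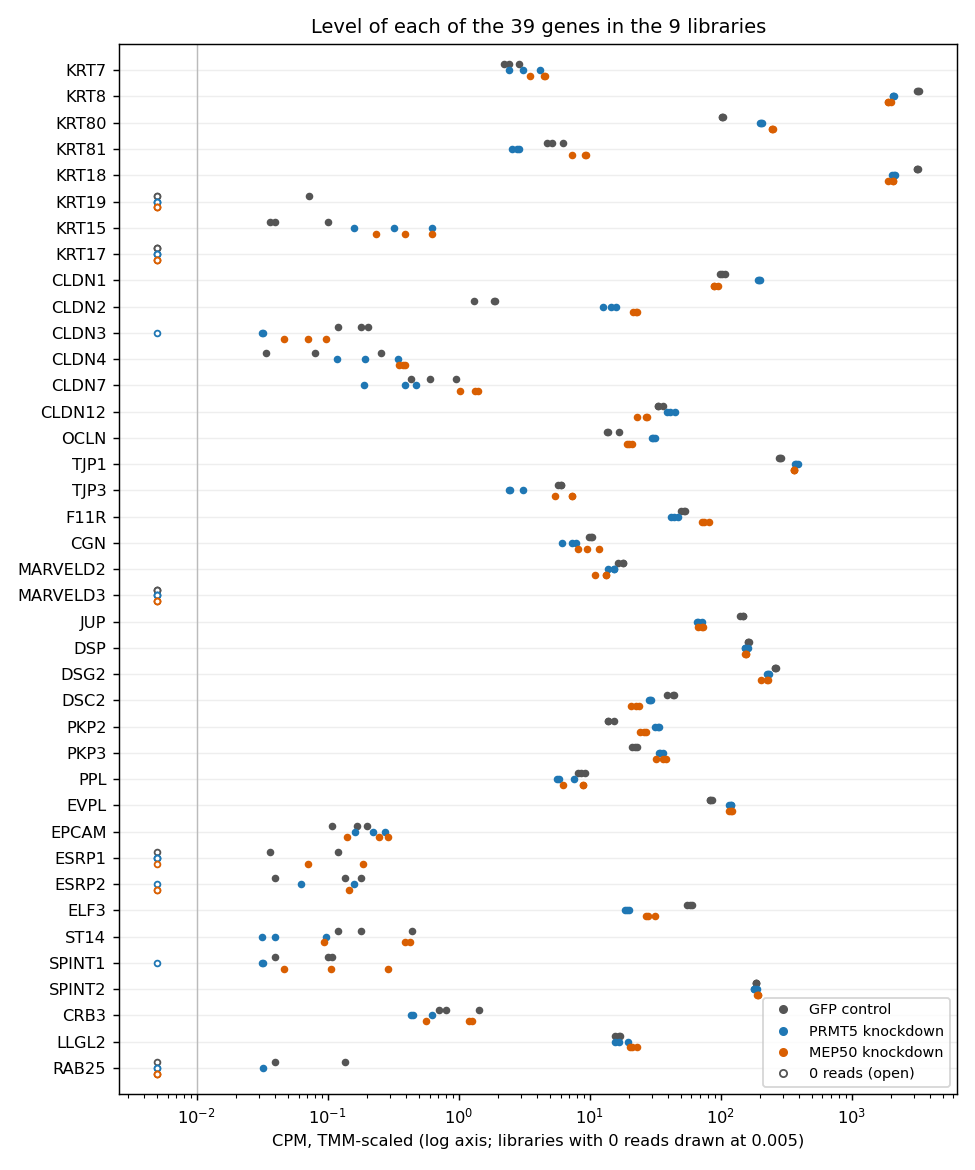
CPM of each of the 39 genes (rows) in the 9 libraries, on a log axis; each point is 1 library, colours mark the groups, and open points at the left are libraries with 0 reads. KRT8 and KRT18 stand at the right, between 1892 and 3294 CPM, and KRT17 and MARVELD3 have 0 reads in all 9 libraries.

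**Figure D2:**
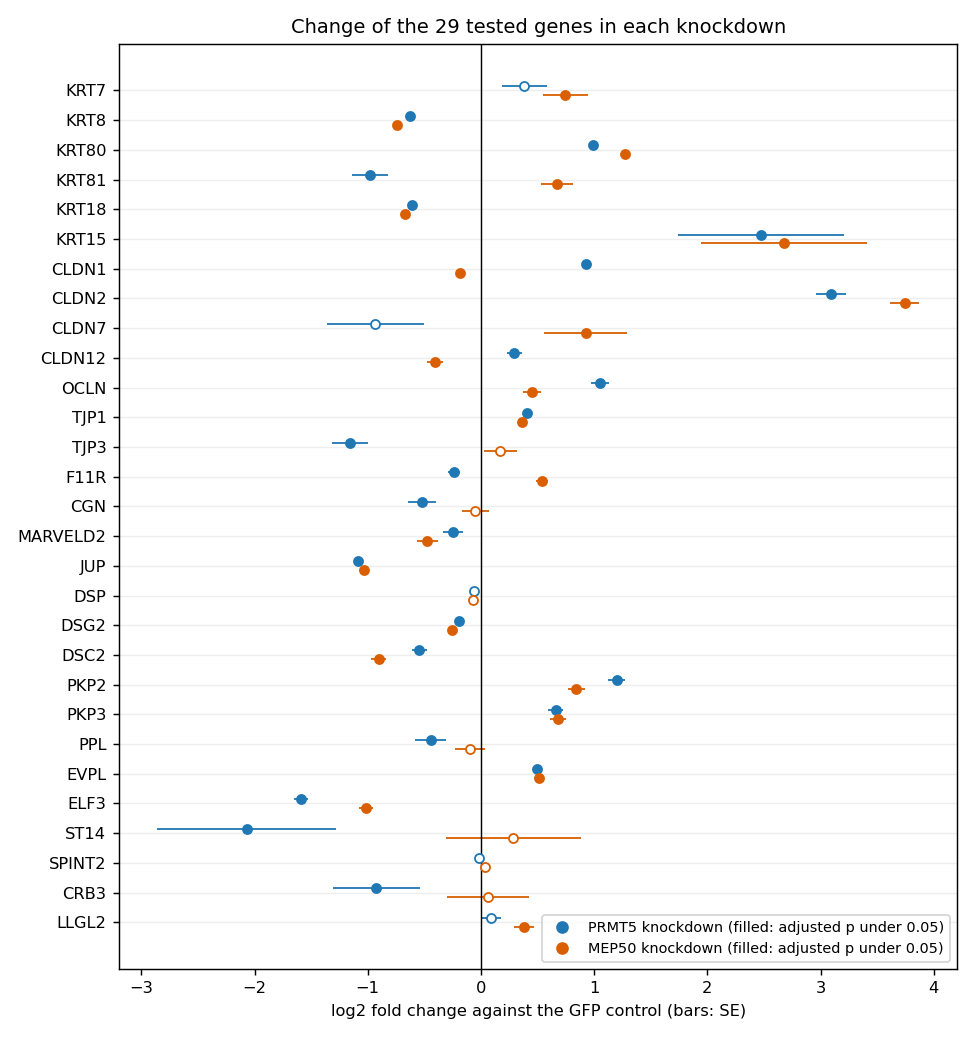
The log2 fold change of each of the 29 tested genes in the PRMT5 and the MEP50 knockdown against the GFP control, with its SE as a bar; filled points passed an adjusted p under 0.05. CLDN2 is farthest to the right at 3.09 and 3.74, and KRT81, CLDN1, CLDN12 and F11R have filled points on both sides of 0.

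RefSeq promoter sequences (GRCh38.p14; 250 bases before to 50 after the annotated start) were at hand for 20 of the 39 genes, and were searched because junction genes are textbook targets of the repressors ZEB1 and SNAI1. The hexamer CACCTG that these factors bind, read on both strands (CAGGTG on the other), lay in 9 of the 20 promoters (45%) and in 20.6% of 27305 promoters of the same length. The 9 were CLDN3, CRB3, DSC2, DSG2, DSP, ELF3, OCLN, RAB25 and TJP1. The 5 windows of 30 bases below, with the hexamer in capitals, are shown because their genes cover each direction of change described below.
OCLN: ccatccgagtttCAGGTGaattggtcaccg
TJP1: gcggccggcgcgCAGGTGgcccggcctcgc
ELF3: gaatatgcaaatCACCTGgggccaggagcc
DSC2: tcaactttctgtCAGGTGggcctcaggcag
CRB3: agtgcgctctccCAGGTGagtgactaaact
These windows lie at chr5:69492502-69492531 (plus strand), chr15:29969120-29969149 (minus), chr1:202010455-202010484 (plus), chr18:31102560-31102589 (minus) and chr19:6464199-6464228 (plus), each upstream of the annotated start. Genes holding the hexamer did not share a direction. OCLN and TJP1 were higher in both knockdowns, ELF3, DSC2 and DSG2 lower in both, and CRB3 lower in the PRMT5 knockdown. DSP passed the threshold in neither, and CLDN3 and RAB25 had too few reads to be tested. The CRB3 promoter holds further matches that are not printed. The AP-1-type motif TGANTCA, a palindrome apart from its centre, was searched with any base at the centre. It lay in 3 of the 20 promoters (15%, beside 7.76% of the same 27305), those of CLDN2, CLDN4 and SPINT1. The centre base was T in CLDN2, C in SPINT1, and CLDN4 held a match of each kind. The match is shown for CLDN2, the gene with the largest rise among the 29 tested, at chrX:106900093-106900122 (plus strand), with the motif in capitals.
CLDN2: tatttttctccTGATTCAtctcatgccaac
A match is a run of letters in the sequence, and binding was not measured here.

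The keratin pair of simple epithelia fell in both knockdowns and carried most of the reads of the whole list. KRT8, the type II chain (ENSG00000170421), stood at 3142, 3294 and 3233 CPM in the control libraries, 2114, 2067 and 2079 with PRMT5 knockdown, and 1905, 1998 and 1892 with MEP50 knockdown. No knockdown library reached the lowest control library, and the log2 fold changes were -0.63 ± 0.0245 (SE, adjusted p = 7.32e-24) and -0.74 ± 0.0246 (adjusted p = 3.93e-26). KRT18, its type I partner (ENSG00000111057), stood at 3158, 3239 and 3187 CPM, then 2159, 2104 and 2035, then 1894, 2066 and 2057. Its libraries also lay apart from the control, with log2 fold changes of -0.61 ± 0.0273 (adjusted p = 1.06e-20) and -0.67 ± 0.0273 (adjusted p = 4.76e-22). Between the knockdowns, KRT8 was lower in the MEP50 knockdown by a small margin (log2 fold change -0.11, adjusted p = 0.000288), and KRT18 did not pass the test (-0.07, adjusted p = 0.0527). The KRT18 difference passed under some alternatives, among them total reads as the scale (-0.09, adjusted p = 0.00984) and no filter (-0.08, adjusted p = 0.0172). In bulk RNA, fewer cells expressing a gene and less RNA per cell cannot be told apart.

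The ratio of KRT8 to KRT18 moved little while both levels fell. Per kilobase of transcript it was 0.741 ± 0.00886 in the control, 0.731 ± 0.0175 with PRMT5 knockdown and 0.708 ± 0.0317 with MEP50 knockdown, and the libraries of the 3 groups overlapped. The pair took 40.0% and 39.6% of the reads on the 39 genes in the control, 34.6% and 34.8% with PRMT5 knockdown, and 33.7% and 35.0% with MEP50 knockdown. The summed level of the 39 genes fell from 8060 ± 128 CPM in the control to 6026 ± 83.2 and 5733 ± 154, a description that rests on these 2 genes. Without them the sum was 1642 ± 16.3, 1839 ± 14.0 and 1795 ± 21.6 CPM, higher in all 6 knockdown libraries than in the 3 control libraries. Processed pseudogenes can split reads with their parents: 42 annotated KRT8 pseudogenes held 0.824% as many reads as KRT8, and 60 KRT18 pseudogenes 0.201% as many as KRT18.

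**Figure D3:**
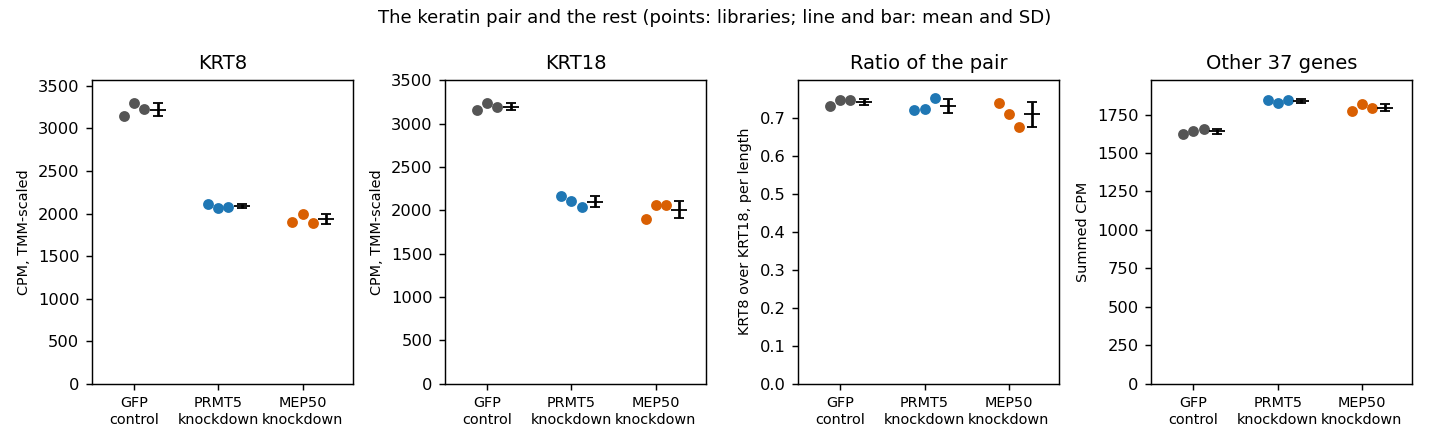
KRT8 and KRT18 in CPM, their ratio per kilobase of transcript, and the summed CPM of the other 37 genes; points are libraries, and the line and bar beside them are the mean and SD of 3. Both keratins are lower in all 6 knockdown libraries, the ratio stays between 0.676 and 0.751, and the sum of the other genes is higher in the knockdowns.

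The other keratins went their own ways. KRT80, a type II keratin of differentiating epithelia (ENSG00000167767), stood at 102, 105 and 102 CPM in the control, 205, 207 and 202 with PRMT5 knockdown, and 250, 247 and 249 with MEP50 knockdown. The 3 groups did not overlap: it rose by a log2 fold change of 0.99 ± 0.0316 (adjusted p = 7.28e-27) and 1.27 ± 0.0317 (adjusted p = 2.08e-30), and was 1.22-fold higher in the MEP50 than in the PRMT5 knockdown (adjusted p = 4.66e-10). KRT7, a type II keratin of glandular and ductal epithelia (ENSG00000135480), was scarce, at 2.91, 2.23 and 2.43, then 2.41, 3.13 and 4.20, then 3.53, 4.58 and 4.47 CPM. Only the MEP50 libraries lay above the control (log2 fold change 0.74, adjusted p = 0.0017), the PRMT5 libraries overlapped it (0.38, adjusted p = 0.11), and the knockdowns did not differ from each other beyond the threshold (0.36, adjusted p = 0.133). The PRMT5 change passed without PRMT5 knockdown replicate 1 (0.53, adjusted p = 0.0316). The difference between the knockdowns passed without PRMT5 knockdown replicate 3 (0.60, adjusted p = 0.0231).

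KRT81, a type II hair keratin (ENSG00000205426), moved in opposite directions. It stood at 5.19, 6.27 and 4.71 CPM in the control, 2.88, 2.55 and 2.81 with PRMT5 knockdown, and 9.42, 9.16 and 7.40 with MEP50 knockdown, so no 2 groups overlapped. The log2 fold changes were -0.98 ± 0.159 (adjusted p = 1.84e-06) and 0.67 ± 0.142 (adjusted p = 0.000105). Its near-identical copies KRT83 and KRT86 could share its reads, and the value is uncertain for that reason. Of these, KRT83 stood at 1.47 ± 0.0746, 0.646 ± 0.213 and 1.24 ± 0.0731 CPM, and KRT86 had 58 reads in all libraries.

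Among type I keratins other than KRT18, few reads were found. KRT15, a keratin of basal cells, had 1, 3 and 1 reads in the control libraries, 16, 10 and 5 with PRMT5 knockdown, and 13, 5 and 11 with MEP50 knockdown. The ratios of the group totals were 5.80 (95% interval 2.24 to 19.1) and 6.78 (2.59 to 22.4), where the exact binomial interval covers counting error only. It passed the test in both (adjusted p = 0.00444 and 0.00213), but without PRMT5 knockdown replicate 1 the first no longer did (log2 fold change 1.89 against 2.47, adjusted p = 0.0607). KRT15 passed the filter on low counts only through the knockdown groups, where it is high, so the filter favoured its rise. KRT19 had 2 reads in 1 control library and 0 elsewhere. KRT17 had 0 of 240852180 reads, which allows up to 0.0125 CPM (3 reads).

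A further list of 28 keratins held 4 tested genes, and all 4 were lower with PRMT5 knockdown and 3 with MEP50 knockdown, beside 24.9% and 25.2% of all tested genes. KRT10, a type I keratin of differentiating skin cells, stood at 126 ± 5.20, 36.5 ± 2.01 and 40.4 ± 2.37 CPM in control, PRMT5 knockdown and MEP50 knockdown, falling by a log2 fold change of -1.79 (adjusted p = 4.7e-29) and -1.63 (adjusted p = 1.82e-27). KRT4, a type II keratin of mucosal squamous cells, stood at 12 ± 0.708, 3.89 ± 0.0726 and 1.70 ± 0.264 (-1.62 and -2.83, adjusted p = 8.5e-14 and 5.71e-19). KRT83 fell in the PRMT5 knockdown (-1.16, adjusted p = 0.00178) and was not called in the MEP50 knockdown (-0.25, adjusted p = 0.511). KRT20, an intestinal keratin named here after its values were seen because its mean is under 1 CPM, stood at 2.55 ± 0.589, 0.0581 ± 0.0237 and 0.113 ± 0.117 (-5.37 and -4.43, adjusted p = 5.21e-12 and 1.42e-10). With 54, 67 and 89 reads in the control and at most 5 in any knockdown library, it passed the filter only through the group where it is high. The filter thus favoured its fall, and the counts of lower genes above include it.

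The makeup of the 6 claudins of the list differed in both knockdowns, and their summed level lay apart from the control in the PRMT5 knockdown alone. Per kilobase of transcript (RPKM, CPM divided by transcript length) the 6 claudins summed to 40.4 ± 1.25 RPKM in the control, 73.2 ± 0.986 with PRMT5 knockdown and 41.5 ± 1.59 with MEP50 knockdown. CLDN2 made up 1.33% ± 0.269 of that sum in the control, 6.23% ± 0.670 with PRMT5 knockdown and 17.2% ± 1.26 with MEP50 knockdown. CLDN1 made up 73.5%, 77.3% and 63.1%, and CLDN12 23.7%, 16.1% and 17.4%, in the same order. Claudins outside the list are not in this sum, among them CLDN15 at 2.76 ± 0.334, 2.76 ± 0.117 and 1.88 ± 0.216 RPKM.

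**Figure D4:**
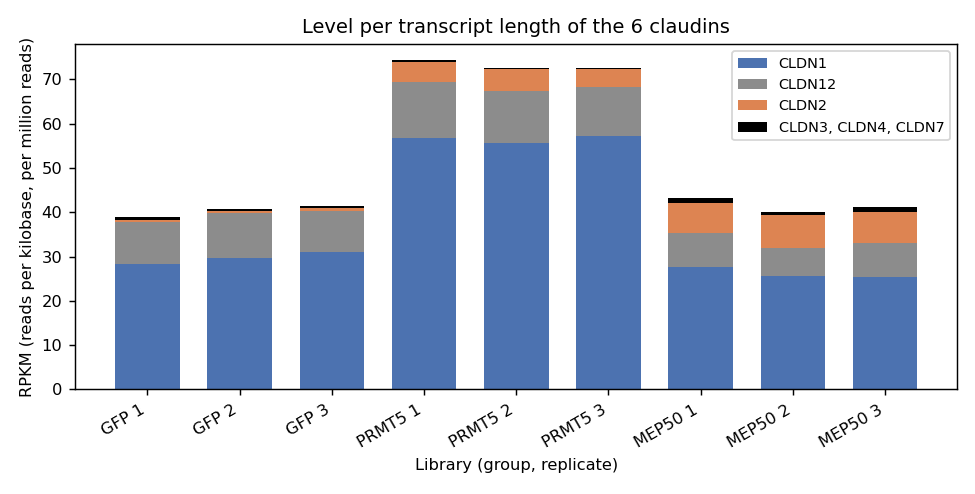
RPKM of the 6 claudins, stacked for each of the 9 libraries. CLDN1 is the tallest part in every library, the 3 PRMT5 knockdown libraries stand highest, and the CLDN2 part is largest in the MEP50 knockdown libraries.

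CLDN2, which forms cation- and water-permeable pores in leaky epithelia (ENSG00000165376; its promoter window is printed above), rose in both knockdowns. It stood at 1.88, 1.31 and 1.88 CPM in the control, 14.5, 15.8 and 12.7 with PRMT5 knockdown, and 21.6, 23.2 and 22.7 with MEP50 knockdown, so no 2 groups overlapped. The log2 fold changes were 3.09 ± 0.135 (adjusted p = 3.15e-22) and 3.74 ± 0.131 (adjusted p = 2.12e-25), an 8.53-fold and a 13.4-fold rise, and the knockdowns differed by 1.57-fold (adjusted p = 4.57e-07).

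CLDN1, a sealing claudin (ENSG00000163347), went the 2 ways. It stood at 98.9, 103 and 108 CPM in the control, 197, 194 and 199 with PRMT5 knockdown, and 96.0, 88.9 and 88.6 with MEP50 knockdown. It rose 1.90-fold in the PRMT5 knockdown (log2 fold change 0.93 ± 0.0373, adjusted p = 1.92e-23) and was 1.14-fold lower in the MEP50 knockdown (-0.19 ± 0.0395, adjusted p = 0.000126), where the highest library lay just under the lowest control library. CLDN12, a claudin that lacks the usual tail motif for ZO proteins (ENSG00000157224), showed the same order at a smaller size. Its values were 33.2, 36.2 and 33.0, then 45.1, 41.5 and 39.2, then 27.6, 23.0 and 26.8 CPM. It was 1.22-fold higher in the PRMT5 knockdown (adjusted p = 0.000245) and 1.32-fold lower in the MEP50 knockdown (adjusted p = 5.38e-06).

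CLDN7, CLDN4 and CLDN3, claudins of tight epithelia, were near the limit of detection. CLDN7 stood at 0.958, 0.607 and 0.435 CPM in the control, 0.473, 0.387 and 0.189 with PRMT5 knockdown, and 1.40, 1.03 and 1.34 with MEP50 knockdown. The MEP50 libraries lay above all others (log2 fold change 0.93 against the control, adjusted p = 0.0322; 1.86 against the PRMT5 knockdown, adjusted p = 0.000232). The PRMT5 libraries were lower by a like size that missed the threshold (-0.93, adjusted p = 0.0677), and passed it without GFP control replicate 3 or PRMT5 knockdown replicate 1 (adjusted p = 0.0367 and 0.0471). The call of the MEP50 knockdown against the control was lost without GFP control replicate 2 or 3 or MEP50 knockdown replicate 1 or 3 (0.70 to 0.87, adjusted p = 0.0899 to 0.162), without the filter (adjusted p = 0.0595) and with DESeq2 (adjusted p = 0.0775). CLDN4 had 10, 20 and 26 reads in the 3 groups. Its ratios to the control were 1.87 in the PRMT5 knockdown (95% interval 0.836 to 4.47) and 3.04 in the MEP50 knockdown (1.42 to 7.06). CLDN3 had 14, 2 and 5 reads, with ratios of 0.134 (0.0147 to 0.582) and 0.417 (0.118 to 1.23) in the same order. These intervals cover counting error only. Both genes were below the filter and were not tested.

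Of 16 further claudin genes, 3 were tested. CLDND1 was lower in both knockdowns (log2 fold change -0.27, adjusted p = 8.43e-05, and -0.14, adjusted p = 0.0327), CLDN15 only passed in the MEP50 knockdown (-0.54, adjusted p = 0.00233; 0.00 in the PRMT5 knockdown, adjusted p = 0.991), and CLDN16 passed in neither but was lower in the MEP50 than in the PRMT5 knockdown (-1.17, adjusted p = 0.0075).

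The membrane and plaque proteins of the tight junction were split. OCLN, occludin (ENSG00000197822), stood at 13.6, 13.8 and 16.9 CPM in the control, 29.7, 31.5 and 30.5 with PRMT5 knockdown, and 19.3, 20.1 and 21.0 with MEP50 knockdown. The groups did not overlap: the log2 fold changes were 1.05 ± 0.0785 (adjusted p = 9.37e-15) and 0.45 ± 0.0832 (adjusted p = 1.53e-05), and it was 1.52-fold lower in the MEP50 than in the PRMT5 knockdown (adjusted p = 2.89e-08). TJP1, which encodes the scaffold ZO-1 (ENSG00000104067), stood at 283, 279 and 290, then 374, 367 and 387, then 363, 366 and 365 CPM. It was 1.32-fold and 1.28-fold higher than the control (adjusted p = 1.32e-15 and 4.67e-14) and did not differ between the knockdowns beyond the threshold (log2 fold change -0.04, adjusted p = 0.228).

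TJP3, which encodes the related scaffold ZO-3 (ENSG00000105289), was lower in the PRMT5 knockdown alone. Its values were 5.79, 6.10 and 6.05 CPM in the control, 2.41, 2.45 and 3.12 with PRMT5 knockdown, and 5.46, 7.29 and 7.33 with MEP50 knockdown. The log2 fold change was -1.16 ± 0.159 in the PRMT5 knockdown (adjusted p = 6.5e-08), 0.17 in the MEP50 knockdown (adjusted p = 0.349), and 1.33 between them (adjusted p = 6.71e-09). CGN, cingulin (ENSG00000143375), was also lowest in the PRMT5 knockdown, at 10.2, 10.4 and 9.92, then 7.85, 7.32 and 6.15, then 11.7, 8.18 and 9.58 CPM. It was 1.44-fold lower in the PRMT5 knockdown (adjusted p = 0.0004), overlapped the control in the MEP50 knockdown (log2 fold change -0.05, adjusted p = 0.753), and differed by 0.47 between them (adjusted p = 0.00216).

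F11R, the adhesion molecule JAM-A (ENSG00000158769), was called in opposite directions, the reverse of CLDN1. Its values were 53.4, 53.0 and 50.2 CPM in the control, 47.1, 44.1 and 42.2 with PRMT5 knockdown, and 72.1, 81.2 and 74.3 with MEP50 knockdown. It was 1.18-fold lower (log2 fold change -0.23, adjusted p = 3e-04) and 1.45-fold higher (0.54, adjusted p = 1.27e-11). MARVELD2, tricellulin, which sits where 3 cells meet (ENSG00000152939), stood at 18.0, 18.1 and 16.5, then 15.3, 15.3 and 13.8, then 11, 13.4 and 13.4 CPM. Both knockdowns lay under the control (log2 fold change -0.25, adjusted p = 0.0175, and -0.48, adjusted p = 3.26e-05). The first call was lost without GFP control replicate 1 or 2 or PRMT5 knockdown replicate 3 (adjusted p = 0.0523 to 0.0907). The difference between the knockdowns (-0.23, adjusted p = 0.0498) fell short of the threshold in most alternatives, and without MEP50 knockdown replicate 1 it was -0.13 (adjusted p = 0.3). MARVELD3 had 0 reads in all 9 libraries, with the same limit as KRT17.

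**Figure D5:**
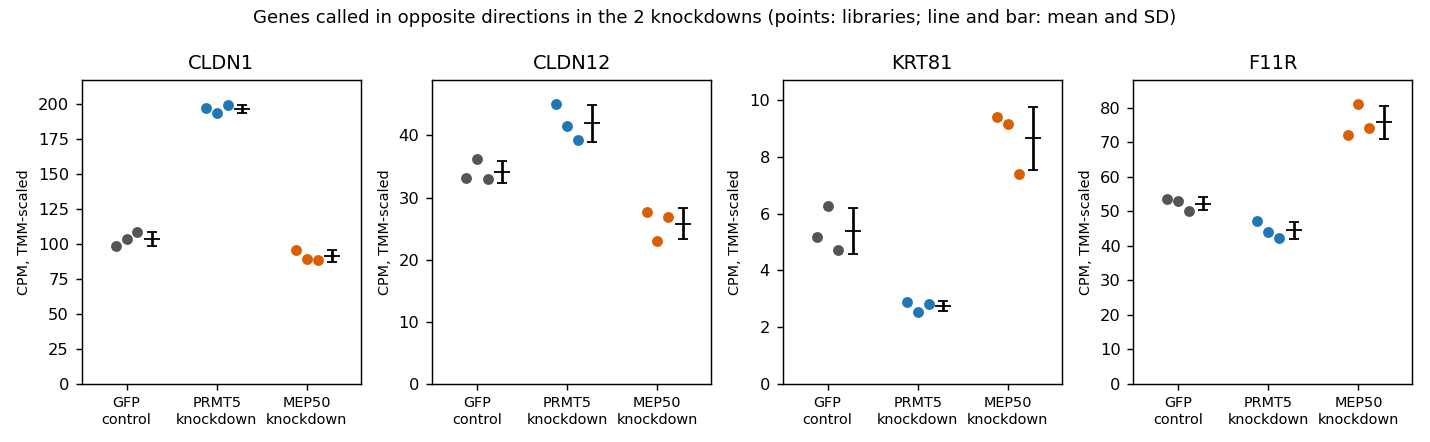
CLDN1, CLDN12, KRT81 and F11R in CPM; points are libraries, and the line and bar beside them are the mean and SD of 3. CLDN1 and CLDN12 are highest with PRMT5 knockdown and lowest with MEP50 knockdown, and KRT81 and F11R are the reverse.

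Of 28 further polarity and tight junction scaffold genes, 22 were tested: 7 were higher and 9 lower with PRMT5 knockdown, and 7 higher and 7 lower with MEP50 knockdown. Of all tested genes, 51% and 51.7% were called in these comparisons. CXADR, a junctional immunoglobulin-type receptor, fell from 37 ± 0.653 CPM to 23.7 ± 0.176 and 12.7 ± 1.10 (log2 fold change -0.64 and -1.55, adjusted p = 1.23e-10 and 8.63e-21). AMOTL1, an angiomotin-family scaffold, fell from 119 ± 1.77 to 74.1 ± 1.54 and 68.1 ± 2.01 (-0.68 and -0.80, adjusted p = 4.01e-18 and 4.69e-20). CGNL1, the cingulin paralogue, was scarce and rose from 0.863 ± 0.30 to 2.23 ± 0.173 and 1.48 ± 0.215 (1.38 and 0.80, adjusted p = 5.38e-05 and 0.0212). AMOTL2 moved in opposite directions, from 115 ± 2.05 to 143 ± 6.44 and 91.1 ± 8.36 CPM (0.32 and -0.34, adjusted p = 2.58e-07 and 1.69e-07).

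In the desmosome, plakoglobin and the cadherins were lower and the plakophilins higher. JUP, plakoglobin, which joins desmosomal cadherins to desmoplakin (ENSG00000173801), stood at 141, 148 and 148 CPM in the control, 66.5, 67.2 and 72.6 with PRMT5 knockdown, and 67.9, 73.2 and 72.7 with MEP50 knockdown. Every knockdown library was far below every control library, with log2 fold changes of -1.08 ± 0.0414 (adjusted p = 3.43e-24) and -1.03 ± 0.0421 (adjusted p = 3.63e-23), and the knockdowns did not differ beyond the threshold (0.05, adjusted p = 0.379). DSC2, desmocollin 2 (ENSG00000134755; its promoter window is printed above), stood at 39, 43.9 and 43.4, then 29.4, 28.7 and 28.6, then 20.9, 22.5 and 23.9 CPM. The groups lay apart in that order, with log2 fold changes of -0.54 ± 0.0634 (adjusted p = 1.71e-09) and -0.90 ± 0.0668 (adjusted p = 6.29e-15), and -0.36 between the knockdowns (adjusted p = 4.06e-05).

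DSG2, desmoglein 2, the main desmosomal cadherin of simple epithelia (ENSG00000046604), fell less. It stood at 262, 262 and 265 CPM in the control, 236, 229 and 227 with PRMT5 knockdown, and 205, 230 and 224 with MEP50 knockdown, and was 1.14-fold and 1.20-fold lower (adjusted p = 5.31e-06 and 1.49e-08). DSP, desmoplakin, which anchors keratin filaments, stood at 162, 161 and 166, then 153, 153 and 161, then 155, 156 and 155 CPM. Its differences did not pass the test (log2 fold change -0.07 in each knockdown, adjusted p = 0.0947 and 0.0948). The PRMT5 difference passed without PRMT5 knockdown replicate 3 (-0.10, adjusted p = 0.0202). That of the MEP50 knockdown passed with total reads or upper-quartile factors as the scale (-0.08, adjusted p = 0.04 and 0.0389).

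PKP2, plakophilin 2 (ENSG00000057294), stood at 13.9, 15.4 and 13.8 CPM in the control, 34.0, 31.7 and 33.4 with PRMT5 knockdown, and 24.5, 27.0 and 26.0 with MEP50 knockdown. It rose 2.29-fold (adjusted p = 1.67e-17) and 1.79-fold (adjusted p = 1.77e-12), with the 3 groups apart and the knockdowns differing by 1.28-fold (adjusted p = 6.26e-05). PKP3, plakophilin 3 (ENSG00000184363), stood at 22.3, 21.1 and 22.9, then 33.9, 36.1 and 34.7, then 36.1, 38.3 and 32.1 CPM. It rose 1.58-fold and 1.60-fold (adjusted p = 7.28e-11 and 5.02e-11), to levels that overlapped between the knockdowns.

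The plakins EVPL and PPL, envoplakin and periplakin, are partners in the cornified envelope and differed in direction. EVPL (ENSG00000167880) stood at 86.6, 83.6 and 83.0 CPM in the control, 117, 119 and 121 with PRMT5 knockdown, and 123, 121 and 116 with MEP50 knockdown, a 1.41-fold and a 1.42-fold rise (adjusted p = 1.76e-14 and 1.08e-14). PPL (ENSG00000118898) stood at 8.58, 8.13 and 9.31, then 5.68, 7.55 and 5.81, then 6.28, 8.98 and 8.95 CPM. It was 1.36-fold lower in the PRMT5 knockdown (adjusted p = 0.00508), and its MEP50 libraries overlapped the control (log2 fold change -0.09, adjusted p = 0.585). Its difference between the knockdowns (0.35, adjusted p = 0.0383) was lost without PRMT5 knockdown replicate 1 or 3 or MEP50 knockdown replicate 2 or 3 (0.26 to 0.29, adjusted p = 0.132 to 0.205), with DESeq2 (adjusted p = 0.0664) and with total reads as the scale (adjusted p = 0.0528).

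Of 12 further desmosome and plakin genes 6 were tested, 3 higher and 2 lower with PRMT5 knockdown, and 1 higher and 4 lower with MEP50 knockdown, beside 51% and 51.7% of all tested genes called in either direction. The largest changes were those of DSG4, desmoglein 4, a desmosomal cadherin of hair, named here after its values were seen because its mean is under 1 CPM. It stood at 0.836 ± 0.0739, 0.0686 ± 0.0325 and 0.0948 ± 0.0471 CPM (log2 fold change -3.53 and -3.02, adjusted p = 1.16e-06 and 1.24e-05), and passed the filter only through the control, where it is high. The filter thus favoured its fall, and the counts of lower genes above include it. PKP4, a plakophilin relative, rose from 53.9 ± 3.47 CPM to 117 ± 1.27 and 124 ± 2.77 (log2 fold change 1.11 and 1.20, adjusted p = 2.65e-24 and 3.66e-25). PERP, a tetraspan membrane protein of desmosomes, fell from 428 ± 3.28 to 251 ± 6.55 and 266 ± 5.46 (-0.77 and -0.68, adjusted p = 1.63e-24 and 1.01e-22). PLEC, plectin, which links intermediate filaments to hemidesmosomes, stood at 623 ± 17.5, 728 ± 5.57 and 574 ± 40.4 (0.22 and -0.12, adjusted p = 1.98e-06 and 0.00397), and MACF1, a spectraplakin, was lower in the MEP50 knockdown alone (-0.35, adjusted p = 7.31e-12).

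Of the regulators, ELF3 was the only one tested. This ETS-family transcription factor of epithelia (ENSG00000163435; its promoter window is printed above) stood at 55.5, 60.7 and 58.4 CPM in the control, 20.1, 18.8 and 19.3 with PRMT5 knockdown, and 28.2, 31.4 and 26.9 with MEP50 knockdown. The groups did not overlap, and the PRMT5 knockdown was the lowest: the log2 fold changes were -1.59 ± 0.0635 (adjusted p = 1.59e-23) and -1.02 ± 0.0622 (adjusted p = 1.88e-17), and 0.57 between the knockdowns (adjusted p = 6.73e-09). ESRP1 and ESRP2, the epithelial splicing regulators, had 10 and 19 reads in all 9 libraries together. EPCAM, a homophilic adhesion molecule, had 13, 19 and 16 reads in the 3 groups, and its ratios of 1.37 (95% interval 0.640 to 3.01) and 1.44 (0.648 to 3.25) show no difference detectable at this depth.

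Among the surface proteases and their inhibitors, SPINT2 was the abundant one. This Kunitz-type inhibitor (ENSG00000167642) stood at 186, 187 and 187 CPM in the control, 191, 182 and 180 with PRMT5 knockdown, and 192, 191 and 193 with MEP50 knockdown, and passed the test in neither (log2 fold change -0.02 ± 0.031, adjusted p = 0.635, and 0.04 ± 0.0313, adjusted p = 0.305). Per kilobase it was the third most abundant of the 39 genes in the control, at 104 ± 0.338 RPKM, after KRT18 at 2045 ± 26.3 and KRT8 at 1516 ± 35.9. ST14, the protease matriptase that it inhibits, had 3, 13 and 5 reads in the control, 1, 3 and 1 with PRMT5 knockdown, and 8, 2 and 12 with MEP50 knockdown. It passed the test in the PRMT5 knockdown (log2 fold change -2.07 ± 0.791, adjusted p = 0.0273), but not with DESeq2 (adjusted p = 0.0766), nor without PRMT5 knockdown replicate 1 or 3 (adjusted p = 0.075 and 0.1), nor without GFP control replicate 2, the library with most of its control reads (-1.35, adjusted p = 0.269). The call between the knockdowns (2.35, adjusted p = 0.0145) was lost when replicate 3 of either knockdown was left out (adjusted p = 0.0631 and 0.108). ST14 passed the filter on low counts only through the control and the MEP50 knockdown, where it is high. The filter thus favoured both of these calls. SPINT1, the other inhibitor, had 19 reads in all libraries.

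Of the polarity and trafficking genes, LLGL2, a basolateral polarity protein (ENSG00000073350), stood at 16.8, 17.0 and 15.5 CPM in the control, 15.6, 16.8 and 19.8 with PRMT5 knockdown, and 20.2, 23.0 and 21.1 with MEP50 knockdown. It was 1.30-fold higher in the MEP50 knockdown (adjusted p = 0.000289), overlapped the control in the PRMT5 knockdown (log2 fold change 0.09, adjusted p = 0.43), and differed between them by 0.30 (adjusted p = 0.00532). CRB3, an apical polarity protein (ENSG00000130545; its promoter window is printed above), stood at 1.44, 0.708 and 0.797, then 0.434, 0.452 and 0.631, then 1.26, 0.561 and 1.20 CPM. It was lower in the PRMT5 knockdown (-0.92 ± 0.387, adjusted p = 0.0444), but not past the threshold with DESeq2 (adjusted p = 0.0791), without the filter (adjusted p = 0.0557), without PRMT5 knockdown replicate 1 or 2 (adjusted p = 0.108 and 0.117), or without GFP control replicate 1 (-0.56, adjusted p = 0.313). Its call between the knockdowns (0.99, adjusted p = 0.0421) was lost without PRMT5 knockdown replicate 1 or 2 or MEP50 knockdown replicate 1 or 3 (adjusted p = 0.106 to 0.176), and with DESeq2, no filter or the replicate number as a block (adjusted p = 0.0723, 0.0574 and 0.0501). RAB25, a small GTPase of epithelial recycling, had 6 reads in all libraries, 5 of them in the control.

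In the authors' deposited tables of genes at their threshold, 22 of the 24 genes called here with PRMT5 knockdown and 20 of the 22 called with MEP50 knockdown were listed, all in the direction found here. Those not listed were CRB3 and ST14 in the first and CLDN7 and KRT15 in the second. The deposited tables rest on the same libraries, so this match is no independent support. They hold 6808 and 6833 rows, where 7433 and 7540 of all tested genes were called here. The share of those genes that they list was not counted.

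Markers of other cell types moved between the groups, and their part in these results was not tested. The summed level of 10 fibroblast and stroma markers was 111 to 114 CPM in the control libraries, 302 to 312 with PRMT5 knockdown and 386 to 403 with MEP50 knockdown. Most of that sum was COL3A1 and COL5A1. In all libraries together THY1 and FAP had 0 reads, COL1A2 had 10 and PDGFRB had 14. Of the 5 tested genes of this list, 3 were higher and 1 lower with PRMT5 knockdown, beside 26.1% and 24.9% of all tested genes. With MEP50 knockdown 5 were higher, beside 26.5%. COL3A1 rose from 96.6 ± 0.502 to 214 ± 6.23 and 256 ± 8.83 CPM, and COL5A1 from 1.18 ± 0.210 to 77.5 ± 1.16 and 109 ± 0.722. LUM moved in opposite directions, at 5.17 ± 0.646 CPM in the control, 0.629 ± 0.240 under PRMT5 and 7.90 ± 0.167 under MEP50 hairpins (log2 fold change -3.06 and 0.61, adjusted p = 2.01e-15 and 0.000845), and DCN had 1 read in all libraries. The 6 blood markers summed to 15.7 to 17.6, 23.8 to 27.1 and 26.0 to 29.8 CPM, most of it CD68 (15.7 ± 1.00, 23.2 ± 1.89 and 26.9 ± 2.03), while PTPRC had 3 reads in all libraries. The 3 endothelial markers summed to at most 0.270 CPM in any library, and the 3 airway basal markers to at most 0.838. Of 5 alveolar type II markers, ABCA3 alone was tested and was higher in both knockdowns (79.7 ± 0.655 and 70.3 ± 4.72 CPM, adjusted p = 4.54e-22 and 3.32e-19). The 5 epithelial markers, 3 of them tested, include members of the list itself and summed to 6303 to 6535, 4119 to 4276 and 3803 to 4069 CPM.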

How the data were processed

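Per the labels' protocols, 9 stranded libraries were made from rRNA-depleted total RNA of A549 cells. The authors' deposited count table holds raw read counts per Ensembl gene. The submitters' processing notes name Trim Galore, STAR, HTSeq and the hg19 build. Versions and the strand setting of the counting are not given in the sources used here, so reads from overlapping or antisense genes may be misassigned. The authors also deposited 1 table per knockdown that holds, per the file headers, DESeq2 and edgeR log2 fold changes, DESeq2's mean scaled-count signal and test score, and p-values with adjusted p-values. Only directions and listings were read from them.

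The 5 HTSeq summary lines stayed out of library sizes. Reads outside genes were 11.9% to 14.5% of counted reads. Groups came from the sample titles. edgeR 4.0.16 (R 4.3.3) fitted the 9 libraries together, with no term but the group. It used filterByExpr, TMM scaling and its robust quasi-likelihood test, with p-values adjusted by Benjamini-Hochberg over the 14582 genes tested and a threshold of 0.05. The SE was taken as the size of the log2 fold change divided by the square root of the F statistic. A gene's levels are apart or non-overlapping when no library of one group lies within the range of the other. Replicate pairs differed by 3.24 to 4.47 times counting variance (chi-square per degree of freedom), more than counting error alone gives. This cannot tell whether they came from separate cultures or were repeats from the same RNA. The biological coefficient of variation was 0.0395. The fit was tested on simulated data.

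Levels per kilobase use the longest APPRIS principal transcript in GENCODE 29. That annotation is on GRCh38, so gene coordinates are not given. Alternatives were other scalings, other filters, DESeq2 1.42.0 (adjusted p-values it left out stay out), the replicate number as a block, the 6 libraries of a comparison alone, and leaving out each library in turn. Named genes are all 39, with values in each library for those called whose mean reached 1 CPM, and up to 3 per further list with the largest change among such genes. The genes, the further lists and the markers were chosen with earlier results of these data known.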

Additional observations from a re-analysis of the deposited data

Results flagged for a closer look

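The 4 genes below were called in opposite directions against the control in the 2 knockdowns. They were listed by a rule that also required the difference between the knockdowns to pass the test. Opposite calls against the same control libraries make that difference close to certain, so it is no further support. The share of all tested genes with opposite calls was not counted. The log2 fold change of the MEP50 knockdown minus that of the PRMT5 knockdown was 1.65 for KRT81 (adjusted p = 1.23e-11), -1.11 for CLDN1 (adjusted p = 6.34e-25), -0.70 for CLDN12 (adjusted p = 5.42e-11) and 0.77 for F11R (adjusted p = 1.64e-15). For CLDN1 the change in the MEP50 knockdown was small beside that in the PRMT5 knockdown (-0.19 against 0.93). For KRT81, reads shared with its near-identical copies make the value uncertain.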

How the results depend on the processing

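The counts of genes called stayed within 1.5 times under all alternatives run: in the PRMT5 knockdown 9 to 10 higher and 12 to 15 lower, in the MEP50 knockdown 12 to 14 higher and 9 to 10 lower, and between the knockdowns 9 to 12 higher and 6 to 9 lower. Of the calls, 20 of 24, 21 of 22 and 15 of 19 were kept under every alternative in which the gene was tested. Those lost are given with their values in the results above. Differences that were not called passed the threshold 10 times with a library left out and 6 times under other settings. Between the knockdowns these were differences of KRT18, KRT7, DSG2 and SPINT2. Against the control they were those of KRT7 and CLDN7 with PRMT5 knockdown and of DSP with either knockdown. Adding reads of annotated keratin pseudogenes to KRT8 and KRT18, an alternative chosen after seeing the data, left the counts as they were. No called gene changed direction under the alternatives run. For 9 differences that were not called the sign turned, and the cause was not tested. With each library left out in turn the values ran, after MEP50 knockdown, from -0.18 to 0.062 for CGN, -0.14 to 0.43 for CRB3, -0.19 to 0.053 for PPL and -0.092 to 1.00 for ST14. Between the knockdowns they ran from -0.015 to 0.035 for DSP, -0.17 to 0.78 for KRT15 and -0.028 to 0.093 for PKP3, and after PRMT5 knockdown from -0.025 to 0.14 for LLGL2. Under other settings the DSP difference between the knockdowns was 0.0017 with the 6 libraries alone, 0.0020 with a 1 CPM filter, 0.0020 with DESeq2 and 0.00065 with RLE size factors. With total reads as the scale, that of EVPL was -0.0072 and that of PKP3 -0.0013. Genes with under 100 reads, 12 of the 39, are limited by depth.

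Deviations of same-numbered replicates from their group means had correlations of -0.036 to 0.052 over all tested genes, and the numbers were not taken as pairs. Counting noise enters these values, so they cannot exclude a shared batch. With the replicate number as a block the counts were 10 higher and 14 lower, 13 higher and 9 lower, and 11 higher and 6 lower in the 3 comparisons. In 5 of 9 comparisons of a replicate number between 2 groups the best correlation was with the same number. For the control with the MEP50 knockdown this held for every number (correlations of 0.044 to 0.052).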

Other observations

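Other genes around the surface proteases and the epithelial transcription factors also differed. Of 10 further protease genes and substrates 4 were tested, and 2 were higher and 1 lower in each knockdown, beside 51% and 51.7% of all tested genes called in either direction. MET, the receptor of hepatocyte growth factor, stood at 265 ± 3.18 CPM in the control, 387 ± 10.1 with PRMT5 knockdown and 334 ± 5.43 with MEP50 knockdown (log2 fold change 0.54 and 0.33, adjusted p = 1.51e-19 and 5.85e-13). F2RL1, the protease-activated receptor PAR2, stood at 42.9 ± 1.09, 52.5 ± 2.05 and 63.1 ± 1.10 (0.29 and 0.55, adjusted p = 5.78e-06 and 2.68e-12). HGF itself, named after its values were seen because its mean is under 1 CPM, stood at 1.56 ± 0.266, 0.214 ± 0.131 and 0.257 ± 0.0762 (-2.89 and -2.59, adjusted p = 1.85e-07 and 1.72e-06), and passed the filter on low counts only through the control, where it is high. The filter thus favoured its fall, and it is the 1 lower gene counted above in each knockdown.

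Of 10 epithelial transcription factors 4 were tested, and 3 were lower in the PRMT5 knockdown, 1 higher and 2 lower in the MEP50 knockdown, beside the same background. KLF5, a zinc finger factor of proliferating epithelia, fell from 147 ± 7.51 CPM to 65.9 ± 4.65 and 106 ± 5.34 (log2 fold change -1.16 and -0.47, adjusted p = 2.23e-22 and 2.6e-11). Its relative KLF4 stood at 13.5 ± 1.35, 11 ± 1.25 and 21.7 ± 1.48, lower in the PRMT5 and higher in the MEP50 knockdown (-0.30 and 0.68, adjusted p = 0.00969 and 6.31e-08). GRHL1, a grainyhead factor, was lower in both (-0.77 and -0.75, adjusted p = 0.0355 and 0.0466).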
